A study of Saccharomyces cerevisiae with 22 samples.

Results

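The comparison described here sets 3 arrays of the evolved yeast lineage D11 against 3 arrays of the evolved lineage H9, both carrying an empty vector, which are 6 of the 22 arrays of the series. Members were chosen by sample title alone. All groups were self-diploid Saccharomyces cerevisiae of the BY4742 background (mating type alpha, his3, leu2, lys2 and ura3 deletions). D11 and H9 had evolved, for 20 weeks by the labels, in leucine dropout medium while carrying a single-copy LEU2 plasmid with a Candida albicans serine tRNA that reads the leucine codon CUG, and this plasmid was then swapped for the single-copy LEU2 vector pRS315 without the tRNA. The methods of the study give a shorter evolution than the labels do. The D11 and H9 arrays with the mistranslating tRNA (3 each) are used as a second measurement of the same lineages. The ancestor with the empty vector (2 arrays), which never went through the evolution, is given as a level. Each lineage is 1 clone from 1 evolving population, so the comparison is between 2 clones and not between kinds of lineage. The arrays of a lineage are described as independent experiments.

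Cells that mistranslate make proteins with wrong amino acids, and such proteins misfold, occupy chaperones and have to be degraded. Budding yeast matches its ribosome production to its growth: genes for rRNA processing factors and ribosomal proteins are turned on together in growing cells, whereas genes for reserve carbohydrates, respiration and stress protection are turned on as nutrients run low. Evolved lines of this study also carry whole or partial chromosomes in extra or missing copies, so genes outside those segments are described first.

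Levels are the log2 of the processed spot signal minus the median of the array, averaged over the spots and probes of a gene. They compare samples and not genes. A gene was called when its adjusted p in limma, over the 5912 genes tested, was below 0.05 and the difference was at least 2-fold. Median signals ran from 356 to 2278 across the 22 arrays, 85.8% to 95% of spots that are not controls were well above background, and no spot was saturated. Of the deleted markers, LYS2 was above background on 0, URA3 on 4 and HIS3 on 5 of the 22 arrays, and the plasmid marker LEU2 on all 22.

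Array 3 of both lineages stood apart. D11 array 3 has a dark patch near its centre that holds 1397 spots, or 11.2% of the spots that are not controls, and its 2 spots of a probe differed by more than 2 log2 units for 725 probes, against 24 to 42 probes on the other D11 and H9 empty vector arrays. Its correlation with D11 arrays 1 and 2 over all genes tested was 0.924 and 0.926, against 0.994 between those 2. A smaller patch (694 spots) lies on array 2 of D11 with the tRNA, and a faint one (183 spots) on array 1 of the ancestor. H9 array 3 has no patch but correlated with H9 arrays 1 and 2 at 0.974 and 0.965, against 0.992 between those 2, and its ribosome assembly and stress genes were far from theirs, as given below. Arrays of 1 replicate number shared a slide, and the third slide was scanned on another day, and the part of that day in the differences of array 3 was not tested. Results are therefore also given without the spots in dark patches ("patch-free"), and without the third arrays (array 3 of D11 and of H9), where that changed a value or a call. Leaving the patch out moves the median of D11 array 3, so that its other genes fell by 0.23 on the log2 scale in patch-free values.

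**Figure D1:**
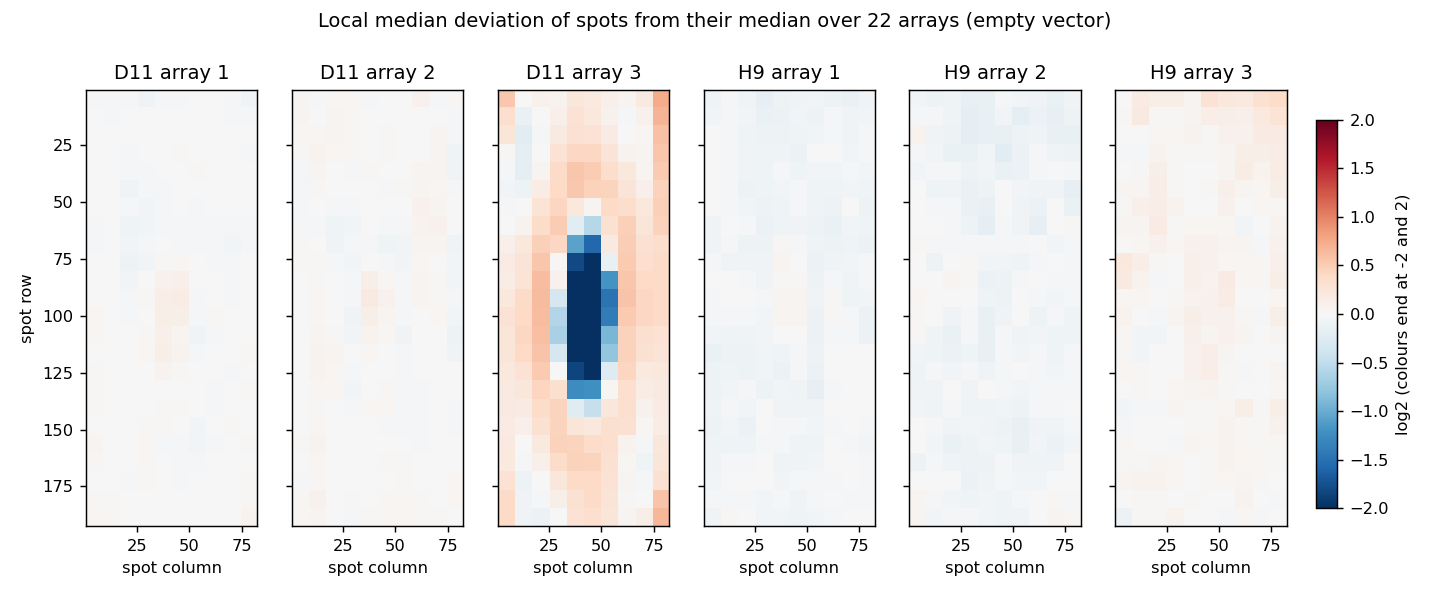
Local median deviation (log2) of spots from their own median over 22 arrays, by position on the array (spot column across, spot row down), for the 3 D11 and the 3 H9 arrays with the empty vector. D11 array 3 has a dark centre where the local median reached -6.32 with a brighter ring around it, and no such region lies on the other 5 arrays.

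With the empty vector, 384 genes were called, or 6.5% of all genes tested. Of these, 226 (3.82%) were higher and 158 (2.67%) lower in D11. Patch-free, 345 were called (5.84%), 220 higher (3.72%) and 125 lower (2.11%), and 294 genes were called both ways. Without the third arrays 197 were called (3.33%), 146 higher (2.47%) and 51 lower (0.863%). Outside the segments the counts were 134 higher and 138 lower, and 129 and 109 patch-free. Of the 138 lower genes, 61 had a spot in the patch of D11 array 3, and 40 of these were not called once its spots were left out. Of the 134 higher genes, 9 had such a spot, and all 9 were called in both. The 384 calls, and the adjusted p values of genes below, rest on a spread per gene estimated over all groups of the series. Some of those groups had replicates that agreed more closely than those of D11 and H9 with the empty vector. A fit to the 6 compared arrays alone called 2 genes.

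The named genes that follow lie outside the segments unless stated. Those with the greatest differences, 15 in each direction, were picked among called genes whose D11 and H9 arrays did not overlap. A lack of overlap in them follows from that choice. RNA came from whole cultures, so fewer cells with a transcript and less of it per cell cannot be told apart. YGP1, a secreted glycoprotein gene that is induced when nutrients run low, gave the clearest of the lower values. Its level was -0.03, -0.34 and -0.07 in D11, against 2.35, 2.60 and 2.77 in H9 and 3.47 and 3.34 in the ancestor. The 3 D11 arrays lay far below every H9 array. The log2 difference was -2.72 ± 0.20 (SE), a 6.58-fold lower level in D11 (adjusted p = 3.6e-07). GPP2, 1 of the pair of glycerol-1-phosphatases, measured -0.03, 0.02 and -0.21 in D11, against 1.63, 1.59 and 1.72 in H9 and 1.67 and 1.60 in the ancestor. It was 3.3-fold lower in D11 (adjusted p = 3.6e-07), and H9 was at the ancestor's level. GPD1, the glycerol-3-phosphate dehydrogenase of the preceding step, was 2.66, 2.54 and 2.66 in D11, against 3.72, 3.71 and 4.38 in H9 (log2 difference -1.32 ± 0.25, adjusted p = 0.0012). Both enzymes of glycerol synthesis named here therefore fell in D11.

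Higher in D11 was ANB1, the gene of the translation factor eIF5A that is expressed at low oxygen. It measured 1.37, 1.18 and 1.73 in D11, against -0.70, -0.42 and -0.62 in H9 and -0.97 and -1.03 in the ancestor. The level was 4.02-fold higher in D11 (log2 difference 2.01 ± 0.14, adjusted p = 3.6e-07). Its near-identical aerobic copy HYP2 differed by 0.36 ± 0.17 and was not called (adjusted p = 0.102). SHC1, which activates the sporulation-linked chitin synthase, was -0.90, -0.84 and -0.70 in D11, against -1.98, -1.90 and -2.12 in H9 (2.27-fold higher, adjusted p = 3.6e-07). HXT2, a high-affinity glucose transporter, was 0.74, 0.94 and 0.71 in D11, against -0.36, -0.44 and -0.65 in H9 and 0.35 and 0.39 in the ancestor (2.43-fold higher, adjusted p = 7.4e-06). Here the ancestor lay between the lineages. YMC2, a mitochondrial carrier gene, was 3.19, 3.27 and 3.07 in D11, against 2.07, 1.83 and 1.27 in H9 (2.74-fold higher, adjusted p = 2.8e-05). ATG41, which acts in autophagy, was 1.72, 2.02 and 2.16 in D11, against 0.61, 0.91 and 0.15 in H9 (2.66-fold higher, adjusted p = 1.9e-05). All these calls held patch-free and without the third arrays.

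The genes with the greatest differences were less even between arrays. ZPS1, a cell surface protein gene induced by low zinc, measured -0.97, 0.62 and -0.39 in D11, against 2.66, 2.74 and 3.5 in H9 and 1.56 and 1.37 in the ancestor (log2 difference -3.22 ± 0.90, adjusted p = 0.0127). FRE7, a putative ferric reductase gene that lies close to ZPS1, was -3.59, -2.33 and -2.31 in D11, against 0.13, 0.42 and -0.05 in H9 and 0.19 and 0.17 in the ancestor (log2 difference -2.91 ± 0.82, adjusted p = 0.0128). D11 thus stood apart from both H9 and the ancestor at FRE7. HXK1, a hexokinase that is repressed by glucose, was 1.01, 0.41 and 0.15 in D11, against 2.55, 2.36 and 5.01 in H9 and 3.92 and 3.97 in the ancestor. The H9 value of 5.01 is that of array 3. The log2 difference was -2.78 ± 0.58 (adjusted p = 0.0021), and -1.75 without the third arrays (adjusted p = 0.017). ZPS1 was not called without them (-2.88, adjusted p = 0.077). CYB2, the L-lactate dehydrogenase that feeds cytochrome c, was -3.40, -3.57 and -3.73 in D11, against -1.73, -1.82 and -0.94 in H9 (4.19-fold lower, adjusted p = 2e-05). PRY1, a secreted sterol-binding protein, was 0.37, 0.63 and 0.84 in D11, against 2.03, 2.65 and 2.51 in H9 (3.44-fold lower, adjusted p = 1.95e-05).

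**Figure D2:**
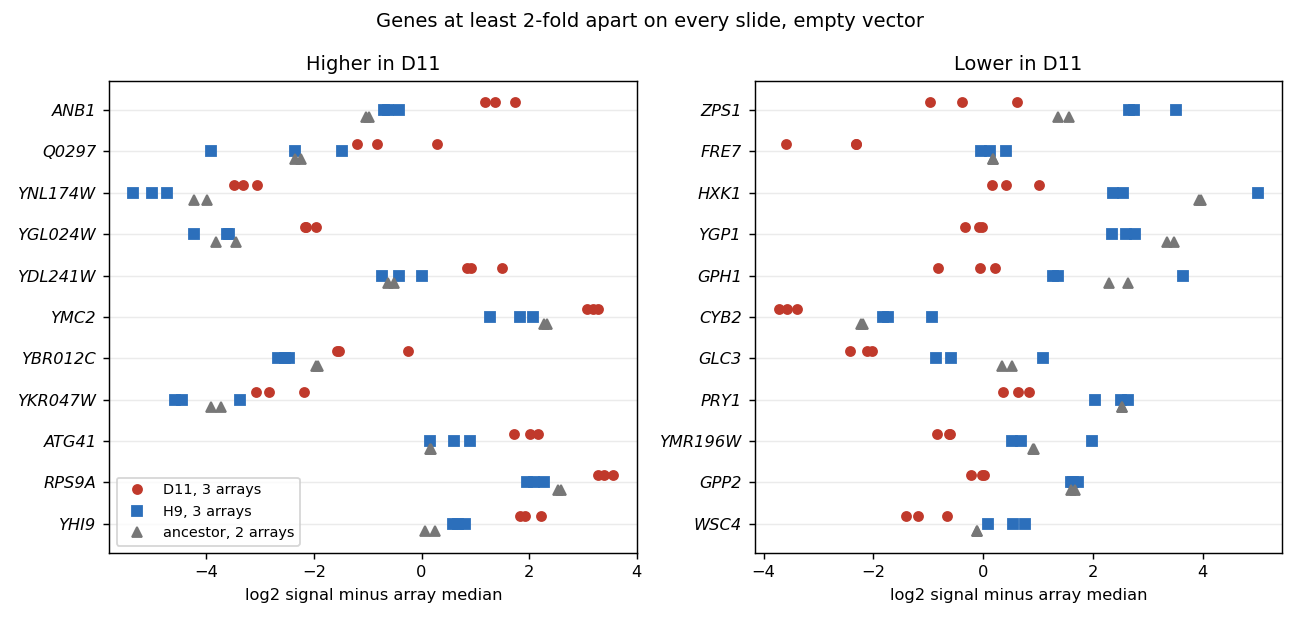
Level (log2 signal minus array median) of genes outside the segments on each array with the empty vector, for D11 (circles, 3 arrays), H9 (squares, 3 arrays) and the ancestor (triangles, 2 arrays). The 11 genes higher in D11 (left) and 11 lower (right) had the greatest differences among called genes at least 2-fold apart on every slide. Genes also had to be above background on all 6 arrays, and those whose slide 3 difference changed markedly patch-free were left out. The choice by slide favours genes without overlap between the lineages, and the H9 array at 5.01 for HXK1 is array 3.

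Of the other lower genes, YTP1 was -5.06, -5.12 and -5.29 in D11, against -2.80, -2.79 and -1.87 in H9 (6.36-fold lower, adjusted p = 7.7e-07), and was above background on 2 of 3 D11 arrays. PHO5, the repressible acid phosphatase, was -2.37, -2.66 and -2.73 in D11, against -1.44, -0.83 and -1.27 in H9 (log2 difference -1.41, adjusted p = 5.3e-05). INO1, the enzyme of inositol synthesis, was -3.5, -2.98 and -2.51 in D11, against -2.0, -1.53 and -1.59 in H9 (-1.29, adjusted p = 0.00048), and the ancestor lay between the lineages at -2.58 and -2.50. GAL4, the activator of the galactose genes, was -5.24, -5.82 and -5.55 in D11, against -2.97, -3.70 and -4.24 in H9 (-1.90, adjusted p = 0.0033), and was above background on 1 of 3 D11 arrays. RSB1, which moves sphingoid bases across the membrane, was not well above background on any D11 array and was at least 2.99-fold lower there (adjusted p = 0.0021). This bound sets the mean of H9 against the lowest signal that counts as above background on each D11 array. PGU1, an endopolygalacturonase, was likewise dim in D11 and at least 1.19-fold lower (adjusted p = 0.013). SSA1, an Hsp70 chaperone, was 2.14, 2.50 and 1.94 in D11, against 3.33, 3.27 and 4.14 in H9 (-1.39, adjusted p = 8.2e-05), and missed 2-fold without the third arrays (-0.98).

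The patch enlarged several of the greatest differences. INH1, which inhibits the ATP synthase, was -0.58, -0.50 and -3.16 in D11 (-0.89 on array 3 patch-free), against 1.26, 1.36 and 1.74 in H9. Its log2 difference of -2.86 became -2.11 patch-free (adjusted p = 2e-06). PIR3, a wall protein, had no spot left on D11 array 3, and with 2 D11 arrays its difference was -1.25 (adjusted p = 0.00024), against -2.56 with all spots. CWP1, a wall mannoprotein, had -1.02 patch-free and -2.44 with all spots. ATP3, a subunit of the ATP synthase, had -1.05 against -2.31. The chaperones HSP42 and HSP78 had -1.22 and -1.36 patch-free, against -2.25 and -2.21 with all spots, and the vacuolar protease PRB1 had -1.43 against -2.15. These 7 genes were called in both, and of them only PIR3 without the third arrays. MRPS12, SOD2 and GDH1 were called only with the patch in, with -1.80, -1.75 and -2.02, and had -0.39, -0.82 and -0.56 without it.

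Leaving the patch out also brought 51 genes to a call, 37 of them higher in D11, and 38 of the 51 had spots in the patch. AAC3, the ADP/ATP carrier made at low oxygen, was 0.01, -0.08 and -2.69 in D11 (0.14 on array 3 patch-free), against -1.39, -1.24 and -1.47 in H9 and -1.58 and -1.46 in the ancestor. Its patch-free log2 difference was 1.39 (adjusted p = 4.1e-06), and 0.45 with all spots (adjusted p = 0.466). CUP1-1 and CUP1-2 are near-identical copies of the copper metallothionein gene, whose probes may not separate them. CUP1-1 was 5.11, 4.89 and 4.93 in D11, against 3.94, 3.41 and 3.85 in H9 (1.24, adjusted p = 5.2e-05), and CUP1-2 differed by 1.23 patch-free (adjusted p = 4e-05) and by -0.05 with all spots.

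Several higher genes were dim. ARR2, arsenate reductase, was -4.46, -4.62 and -4.74 in D11, against -7.09, -6.18 and -6.35 in H9 and -4.79 and -4.65 in the ancestor (log2 difference 1.93, adjusted p = 1.8e-06). H9 was the lineage that stood apart here, and it was above background on 1 of 3 arrays, so that the size of the difference is uncertain. MTC7 was -4.29, -4.41 and -3.95 in D11, against -6.98, -6.08 and -6.76 in H9 (2.39, adjusted p = 0.00021), likewise with 1 H9 array above background. SUL1, a sulfate permease, was higher in D11 (adjusted p = 0.00032) but well above background on 1 D11 and 0 H9 arrays, so no fold is given. YNL198C, above background on 3 D11 and 0 H9 arrays, was at least 1.8-fold higher (adjusted p = 0.0018). YAL064W (2.61), UBC11 (1.86), YOL166C (1.58) and SRL4 (1.55) were above background on 1 or 2 of the 3 H9 arrays, and YOL166C was not called without the third arrays (adjusted p = 0.084). YNL174W (1.74) and YGL024W (1.72) were above background on all 6 arrays. YGL024W was -1.95, -2.14 and -2.17 in D11, against -3.57, -3.62 and -4.23 in H9.

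The size of the difference varied by slide. Over all genes tested, the SD of the D11 minus H9 difference was 0.45 on slide 1, 0.55 on slide 2 and 1.22 on slide 3 (0.80 patch-free). Of the 134 higher genes, 27 differed at least 2-fold on every slide and 60 on slide 3 alone. Of the 138 lower genes the counts were 28 and 70. Of the 55 called genes that were 2-fold apart on every slide, 49 were also called without the third arrays. Their choice by slide already fixes the 2-fold part of that call. Among all 134 higher and 138 lower genes, 55 and 41 were called without the third arrays. Without requiring a call, the D11 and H9 arrays did not overlap for 36.3% of all genes tested, and for 118 of the 134 higher and 135 of the 138 lower genes. D11 lay further from the ancestor's mean than H9 did for 121 of the 134 higher and 132 of the 138 lower genes, which is a description of levels with no test. Patch-free the counts were 116 of 129 and 104 of 109. No share over all genes tested is given beside them, so whether they are particular to called genes was not tested.

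Ribosome assembly genes were higher in D11. Counts and medians of this and the following lists include members inside the segments. The factors of the small subunit processome and of 40S maturation fold, cut and modify the small subunit's rRNA. Of 71 such genes tested, 27 rose in D11 and 0 fell, against 3.82% of all genes called higher, and their median log2 difference was 0.91. Patch-free, 24 rose and all 71 were higher, with a median of 0.89. Over the 48 of the 71 genes outside the segments, the median with all spots was 0.91. The median level of the list was 1.45, 1.56 and 1.19 in D11 (1.44 on array 3 patch-free), against 0.96, 0.79 and -0.38 in H9 and 0.60 and 0.70 in the ancestor. H9 array 3 was thus far below the other H9 arrays, and without the third arrays the median was 0.48 and 2 genes were called. UTP23, which acts at the processome, was 0.59, 0.88 and 1.26 in D11, against -0.08, -0.36 and -1.81 in H9 (1.66 ± 0.36, adjusted p = 0.003). LTV1, a factor of 40S export, was 1.22, 1.28 and 0.81 in D11 (1.60 patch-free), against 0.60, 0.41 and -1.67 in H9 (1.33, adjusted p = 0.031). HCA4, an RNA helicase of the processome, had 1.52 (adjusted p = 0.015), and MRD1, a processome factor, had 1.39 (adjusted p = 0.014). None of these 4 genes was called without the third arrays, where UTP23 had 0.95.

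The 60S assembly factors, which build the large subunit, moved the same way. Of 74 genes tested, 37 rose and 0 fell, against 3.82% of all genes called higher. Patch-free, 32 rose and all 74 were higher. The median difference was 0.99, or 0.97 patch-free, and 0.57 without the third arrays, when 9 were called. Over the 56 of the 74 genes outside the segments, the median with all spots was 0.93. The list's median level was 1.69, 1.74 and 1.47 in D11 (1.58 on array 3 patch-free), against 1.15, 1.08 and -0.19 in H9 and 0.78 and 0.74 in the ancestor. RPF1, which acts on the large subunit's rRNA, was 0.45, 0.35 and 0.88 in D11, against -0.14, -0.61 and -2.12 in H9 (1.52, adjusted p = 0.0073), and was not called without the third arrays (0.78, adjusted p = 0.075). On slides 1 and 2 the list's median difference was 0.50 and 0.63, and on slide 3 it was 1.84. DBP2, an RNA helicase outside both lists, was 2.63, 2.95 and 3.75 in D11, against 1.90, 2.45 and -0.08 in H9 (1.69, adjusted p = 0.0154). It was not called without the third arrays (0.62, adjusted p = 0.212).

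RNA polymerase I makes the rRNA precursor itself. Of its 17 subunits and factors, 2 rose and 0 fell, against 3.82% of all genes called higher. Their median difference was 0.74 (0.71 patch-free), and 16 were higher. RPA34 was 1.90, 2.09 and 2.44 in D11, against 1.19, 0.94 and 0.20 in H9 (1.36, adjusted p = 0.00096), and RPA43 differed by 1.24 (adjusted p = 0.0018). Of 20 genes of RNA polymerase III, RPC53 was called (1.17, adjusted p = 0.0044). RPA34, RPA43 and RPC53 were not called without the third arrays. Cytosolic ribosomal protein genes differed less but more evenly. Their median difference over 137 genes was 0.58 with all arrays, 0.57 patch-free and 0.58 without the third arrays. Over the 104 of them outside the segments, the median with all arrays and spots was 0.52. The list's median level was 5.65, 5.80 and 5.93 in D11, against 5.23, 5.11 and 5.39 in H9 and 5.46 and 5.47 in the ancestor. D11 lay above and H9 below the ancestor. Patch-free, 134 of the 137 were higher in D11, but 5 were called, near the share over all genes (3.72% called higher patch-free). RPS9A, a protein of the small subunit, was 3.28, 3.39 and 3.56 in D11, against 2.09, 1.96 and 2.29 in H9 and 2.54 and 2.60 in the ancestor (2.46-fold higher, adjusted p = 7.4e-06). The other 4 called lie on chromosome XII. Ribosomal protein genes in pairs share most of their sequence, so their probes may not separate the copies. Of 22 cytosolic aminoacyl-tRNA synthetases, 0 were called, with a median of 0.32 and 20 higher, while 14 had an unadjusted limma p below 0.05.

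**Figure D3:**
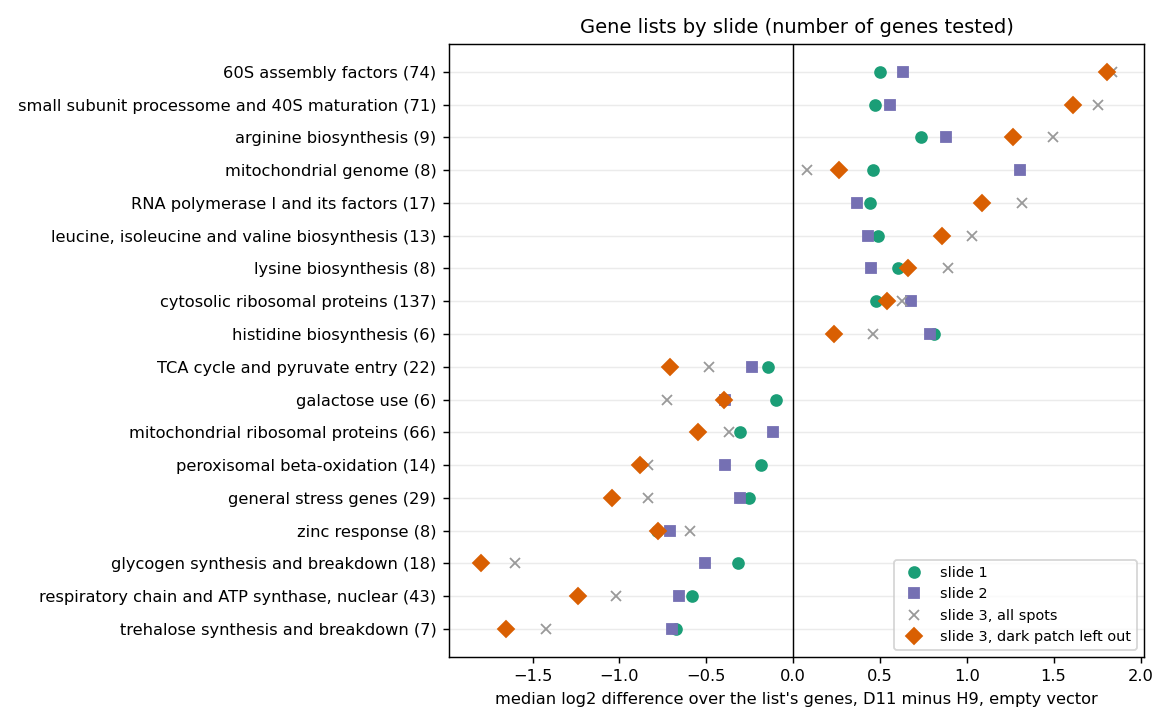
Median log2 difference (D11 minus H9, empty vector) over the genes of a list within each slide, for the 9 lists of at least 6 genes with the highest and the 9 with the lowest patch-free medians; crosses show slide 3 with all spots and diamonds slide 3 patch-free. Ribosome assembly factors were higher on every slide but far more so on slide 3, whereas cytosolic ribosomal proteins stayed between 0.48 and 0.68 with all spots.

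Genes of respiration in the nucleus went the other way. The respiratory chain passes electrons from succinate and NADH to oxygen through ubiquinone and cytochrome c, and the ATP synthase uses the resulting proton gradient. All 43 genes tested were lower in D11, 15 fell and 0 rose, against 2.67% of all genes called lower, and 14 fell patch-free. The median difference was -0.85, or -0.91 patch-free and -0.60 without the third arrays, when 5 were called. The list's median level was 1.35, 1.34 and 1.47 in D11, against 2.02, 2.02 and 2.63 in H9 and 2.01 and 2.08 in the ancestor. H9 arrays 1 and 2 were at the ancestor's level. CYC1, cytochrome c itself, was -0.39, -0.18 and -0.28 in D11, against 0.70, 0.65 and 1.14 in H9 and 0.69 on both ancestor arrays (2.16-fold lower, adjusted p = 1.7e-05). In complex III, RIP1, the iron-sulphur protein, was -0.28, -0.38 and 0.26 in D11, against 0.91, 1.09 and 1.47 in H9 (-1.29, adjusted p = 0.00029). COR1 (-1.08), QCR2 (-1.01), QCR10 (-1.14) and the cytochrome c1 gene CYT1 (-1.19) of the same complex were called too. SDH1, the flavoprotein of succinate dehydrogenase, was 1.31, 0.84 and -0.12 in D11 (0.73 patch-free), against 2.49, 2.58 and 3.14 in H9 (-2.06, or -1.77 patch-free with adjusted p = 4.5e-05). NDI1, the NADH dehydrogenase facing the matrix, differed by -1.33 (adjusted p = 0.00074). CYC1, COR1 and CYT1 missed 2-fold without the third arrays, with -0.96 for CYC1, while RIP1, QCR2, QCR10, SDH1 and NDI1 were called.

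Other lists of mitochondrial function had few calls. Of 66 mitochondrial ribosomal proteins, 61 were lower, with a median of -0.30 (-0.34 patch-free), and MRPS12, whose call rests on the patch, was the 1 called. Of 22 genes of the TCA cycle and pyruvate entry, 15 were lower and 7 higher, with a median of -0.27. Citrate synthase, CIT1, was the 1 called, at 2.22, 2.34 and 2.20 in D11, against 3.20, 3.05 and 4.22 in H9 and 3.68 and 3.64 in the ancestor (-1.24, adjusted p = 0.00093). In the list of gluconeogenesis and acetate use, CAT8, an activator of its genes, was -3.02, -3.51 and -3.15 in D11, against -2.09, -2.65 and -0.68 in H9 (-1.42, adjusted p = 0.0056). Without the third arrays CIT1 had -0.85 and CAT8 -0.89, short of 2-fold.

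With the empty vector, transcripts of the mitochondrial genome were higher in D11 on average. All 20 features tested were higher, 8 of them called (9 patch-free), against 3.82% of all genes called higher. The mean log2 difference of the 20 was 0.949. Their mean level was -0.99, -1.11 and -0.43 in D11, against -1.65, -2.75 and -0.98 in H9 and -1.41 and -1.74 in the ancestor. The difference by slide was 0.66, 1.64 and 0.54, so H9 array 2 set much of it, and the D11 and H9 arrays overlapped slightly. Of the 8 protein-coding genes, COX1, a core subunit of cytochrome c oxidase, was 1.27, 0.61 and 1.51 in D11, against 0.46, -0.70 and 0.29 in H9 and -0.28 and -0.63 in the ancestor (1.12, adjusted p = 0.021). VAR1, the mitochondrially encoded ribosomal protein, was -2.13, -2.10 and -1.42 in D11, against -2.78, -4.46 and -2.01 in H9 (1.20, adjusted p = 0.033), and ATP6 was called only patch-free (1.33, adjusted p = 0.019). Q0297, a mitochondrial reading frame, had the greatest difference of these (2.00, adjusted p = 0.0036). Labelled copies were made from total RNA with the Agilent T7 promoter primer. How well this primer copies mitochondrial transcripts was not measured, and neither was mitochondrial genome number.

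Reserve carbohydrate genes were lower in D11. Of 18 genes of glycogen synthesis and breakdown, 6 fell and 0 rose (7 fell patch-free), against 2.67% of all genes called lower. The list's median difference was -0.93 (-0.91 patch-free, and -0.41 without the third arrays). The median level was -1.30, -1.28 and -1.31 in D11, against -0.91, -0.77 and 0.19 in H9 and -0.36 and -0.45 in the ancestor. GPH1, glycogen phosphorylase, was 0.22, -0.83 and -0.06 in D11, against 1.36, 1.26 and 3.63 in H9 and 2.29 and 2.64 in the ancestor (4.96-fold lower, adjusted p = 0.0017). GLC3, the branching enzyme, was -2.12, -2.42 and -2.03 in D11, against -0.87, -0.59 and 1.09 in H9 (-2.07, adjusted p = 0.0023). Both held without the third arrays. GAC1, which targets a phosphatase to glycogen synthase, differed by -2.02 (adjusted p = 0.0072), PGM2, phosphoglucomutase, by -1.72 (adjusted p = 0.018), and GSY2, glycogen synthase, which lies on chromosome XII, by -1.05 (adjusted p = 0.026). All 7 trehalose genes were lower, and TSL1, TPS1 and ATH1 were called. TPS1, the synthase, was 1.53, 1.19 and 1.55 in D11, against 2.22, 2.13 and 3.38 in H9 (-1.15, adjusted p = 0.0079). PGM2, GSY2 and all 3 called trehalose genes were not called without the third arrays.

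General stress genes followed. Of 29 tested, 7 fell and 0 rose, against 2.67% of all genes called lower. The list's median difference was -0.55 (-0.63 patch-free, -0.27 without the third arrays). HSP12, a small membrane-protecting protein, was -0.14, -2.03 and -0.24 in D11, against 0.41, -0.35 and 2.15 in H9, where the arrays overlapped (-1.54, adjusted p = 0.025). XBP1, a repressor made under stress and encoded on chromosome IX, differed by -1.78 (adjusted p = 0.00065). XBP1 was called without the third arrays and HSP12 was not. Protein quality control genes had no common direction. Of 29 cytosolic chaperones, 4 fell (SSA1, HSP26, SSE2 and HSP42) and 0 rose, against 2.67% of all genes called lower, with a median of 0.07. HSP26, a small heat shock protein, was -0.29, -0.90 and -0.74 in D11, against 0.30, 0.20 and 1.54 in H9 (-1.33, adjusted p = 0.00093), and had -0.85 without the third arrays. Of 45 proteasome genes 0 were called, with a median of -0.01, and of 21 genes of ER folding and the unfolded protein response 0 were called, with a median of -0.08. In limma 12 of the proteasome genes and 8 of the ER genes had an unadjusted p below 0.05.

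Sugar uptake genes split. Of 23 hexose transporters, sensors and kinases, HXT2 rose and 5 fell, against 3.82% of all genes called higher and 2.67% lower. HXT4, a glucose transporter, was -0.41, -0.48 and 0.08 in D11, against 0.36, 0.47 and 1.85 in H9 and 1.99 and 1.80 in the ancestor (-1.16, adjusted p = 0.0062), and had -0.86 without the third arrays. HXT6 and HXT7, near-identical copies on the right end of chromosome IV, differed by -1.33 and -1.40, and neither they nor the glucokinase GLK1 were called without the third arrays. GLK1 had -2.81 with all spots and -1.70 patch-free. Of 26 genes of glycolysis and ethanol formation, 19.2% were called, against 6.5% of all genes tested. GPP2, GPD1, GPM2 and PYK2 fell and PDC1, on chromosome XII, rose, PYK2 and PDC1 only with all spots. The list's median was 0.30.

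Amino acid biosynthesis genes were higher in D11, mostly by less than 2-fold. All 9 arginine genes were higher on every slide, with a median of 0.87 (0.80 patch-free and 0.83 without the third arrays). Of them 3 rose, against 3.82% of all genes called higher. ARG3, ornithine carbamoyltransferase, was 1.81, 1.80 and 1.92 in D11, against 0.95, 0.84 and 0.42 in H9 (1.11, adjusted p = 3.1e-05). ORT1, the mitochondrial ornithine carrier, differed by 1.07 (adjusted p = 1.2e-05) and by 0.99 patch-free, short of 2-fold. Without the third arrays ARG3 had 0.91, and 0 of the 9 genes were called by limma (9 had an unadjusted p below 0.05 with all arrays). The medians were 0.60 over 13 genes of leucine, isoleucine and valine synthesis, 0.68 over 8 of lysine, 0.61 over 6 of histidine and 0.55 over 15 of aromatic amino acids. Of these only LYS20, homocitrate synthase, was called (1.16, adjusted p = 0.0036), and not without the third arrays. GAP1, the general amino acid permease, was lower, at -1.44, -1.36 and -1.39 in D11, against -0.45, -0.15 and 0.93 in H9 and 0.42 and 0.55 in the ancestor (-1.51, adjusted p = 0.00074).

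The list of zinc genes was short. Of 8 tested, ZPS1, ZAP1 and ADH4 fell and ZRT2 rose (50%, against 6.5% of all genes called). The list's median was -0.94 (-0.79 patch-free, when ADH4 was not called). Of these 4 calls 2 held without the third arrays, and that of ZPS1 did not. ZAP1, the activator of zinc uptake, was -2.12, -1.38 and -2.02 in D11, against -0.41, -0.24 and -0.95 in H9 and -0.90 on both ancestor arrays (-1.31, adjusted p = 0.0064). ZRT2, a zinc transporter encoded on chromosome XII, was 3.03, 3.72 and 3.59 in D11, against 2.32, 2.42 and 2.32 in H9 (1.09, adjusted p = 0.00013). In the phosphate list 2 of 21 genes fell, PHO5 and PHM6, against 2.67% of all genes called lower. PHM6, on the right end of chromosome IV, was not well above background in D11, where it was at least 1.95-fold lower. In the list of iron uptake 0 of 27 genes were called by limma, and 10 had an unadjusted p below 0.05. The 7 a-specific mating genes, which a strain of mating type alpha represses, were all higher in D11 with a median of 0.75. AGA2 was the 1 called, but it was above background on no array of either lineage, so no fold is given.

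Of the segments, chromosome XII separated the lineages. The mean over its 519 genes was 0.438, 0.456 and 0.286 in D11 (0.482 on array 3 patch-free), against -0.109, -0.0876 and 0.0297 in H9 and 0.0285 and 0.00833 in the ancestor. The difference was 0.546, 0.543 and 0.256 by slide (0.452 on slide 3 patch-free), with a mean of 0.449, a 1.36-fold higher level in D11 (0.514 patch-free). Of its genes, 420 were higher, 66 rose and 3 fell (13.3% called, against 6.5% of all genes tested). An exact permutation test of the mean over the 6 arrays gave p = 0.1, the smallest possible. Other segments did not separate D11 from H9. The mean difference was -0.035 over the right end of chromosome IV, -0.023 and -0.009 over the inner and outer parts of the segment of chromosome V, 0.001 over that of VII, 0.033 over that of XVI, -0.015 over III and -0.034 over IX, beside -0.041 over the 4539 genes outside. Against the ancestor, D11 and H9 were alike at IV (0.446 and 0.481), at the inner part of V (-0.977 and -0.954) and at its outer part (-0.931 and -0.922), and differed at XII (0.375 and -0.074).

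**Figure D4:**
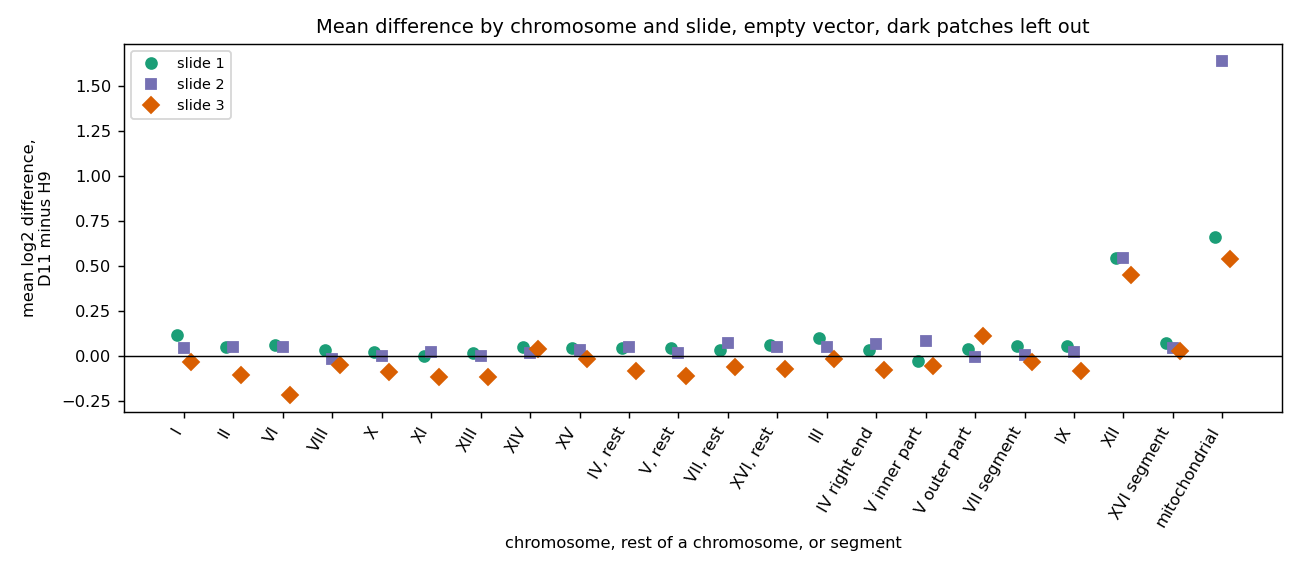
Mean log2 difference (D11 minus H9, empty vector, patch-free) over the genes of each chromosome, of the rest of a chromosome that holds a segment, of each segment and of the mitochondrial genome, for slides 1 (circles), 2 (squares) and 3 (diamonds). Chromosome XII stood at 0.546, 0.543 and 0.452, and the mitochondrial genome at 0.66, 1.64 and 0.54, with all others between -0.217 and 0.117.

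Within chromosome XII the greatest differences exceeded the mean of the chromosome. SDO1, which releases a blocking factor from new 60S subunits, was 2.72, 2.57 and 3.04 in D11, against 1.29, 0.62 and 0.48 in H9 and 0.97 and 1.17 in the ancestor (3.95-fold higher, adjusted p = 7.4e-06). BUD20, a factor of 60S export, was 3.96, 3.94 and 4.17 in D11, against 2.51, 2.33 and 1.34 in H9 (3.9-fold higher, adjusted p = 0.00014). REA1, the large ATPase that strips factors from pre-60S particles, differed by 1.55 (adjusted p = 1.9e-05), and RLP24 by 1.48 (1.69 patch-free, adjusted p = 3.2e-05). FYV7, which acts on 18S rRNA, had 1.96 (adjusted p = 0.00035). ERG27, a sterol 3-keto reductase, was 3.93, 3.88 and 4.30 in D11, against 2.86, 2.87 and 3.02 in H9 (1.12, adjusted p = 1.2e-05). HAP1, the gene of a heme-responsive activator, differed by 0.69 (adjusted p = 0.00067), short of 2-fold, beside 0.449 over the chromosome. Whether its product is active in these strains was not measured. FPR4, a proline isomerase of the nucleolus, was called only patch-free (1.47, adjusted p = 7.7e-06). The 3 lower genes on the chromosome were SDH2, GSY2 and PAU17.

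Genes in the other segments that were called belonged mostly to groups above. FAF1 (1.65) and RRT14 (1.35) on IX, NOP7 (1.38), ENP2 (1.34) and NSR1 (1.25) in the segment of VII, SPB1 (1.13) on III, and RRP17 (1.21), PUF6 (1.15) and RMT2 (1.48) on the right end of IV were higher in D11. Of these 9 genes, FAF1 was called without the third arrays. PUG1, a plasma membrane transporter in the outer part of the chromosome V segment, was -2.28, -2.45 and -2.07 in D11, against -3.63, -3.47 and -3.71 in H9 (1.34, adjusted p = 4.2e-05), and COX15, the heme a synthase in its inner part, was -1.53, -1.51 and -2.54 in D11 (-1.89 patch-free), against -0.60, -0.34 and -0.20 in H9 (-1.48, or -1.26 patch-free). Among 22 genes the study itself names, 7 of which lie outside the segments, 7 rose and 2 fell in D11 (40.9% called, against 6.5% of all genes). They were picked from its own results on evolved lines and are no independent evidence, and 2 of them were called without the third arrays.

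The contrast differed between the plasmids for many genes, and the cause was not tested. With the mistranslating tRNA on both sides, 84 genes were called (1.42%), 78 higher and 6 lower in D11, and 81 (1.37%) patch-free. The test of the difference between the plasmids called 341 genes (5.77%), 405 (6.85%) patch-free and 201 (3.4%) without the third empty vector arrays. Of the 134 genes higher outside the segments with the empty vector, 59 had the same direction with the tRNA, 6 were also called there and 72 were called in the test of the difference. Of the 138 lower genes the counts were 69, 1 and 63. These genes were picked by their empty vector difference, which also enters the test of the difference. That choice alone raises their counts in it, so the counts are no separate evidence. Over all genes, 18 were called in the same direction with both plasmids. They included ANB1, at 0.43, 0.62 and 0.37 in D11 with the tRNA, against -0.60, -0.54 and -0.53 in H9 with the tRNA (1.03, adjusted p = 0.0002), as well as CYB2 (-1.19, adjusted p = 0.0039), ARR2 (1.24), MTC7 (1.46) and ERG27 (1.04). The mean difference over chromosome XII was 0.519 with the tRNA.

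The median of ribosome assembly genes had the opposite sign with the tRNA, although limma called 0 members of either list there. Of the small subunit list 11 members, and of the 60S list 12, had an unadjusted p below 0.05 with the tRNA. With the tRNA the patch-free median difference was -0.44 over the small subunit list and -0.49 over the 60S list, against 0.89 and 0.97 with the empty vector, and 46 of 71 and 53 of 74 genes were called in the patch-free test of the difference. With all spots the counts in that test were 34 and 42, and 22 and 34 without the third empty vector arrays. The respiratory list had a median of 0.10 with the tRNA, and 17 of its 43 genes were called in the patch-free test (14 with all spots, and 5 without the third empty vector arrays). HXT2 was 0.46, 0.30 and 0.43 in D11 with the tRNA, against 0.61, 0.58 and 0.66 in H9 with the tRNA, and the difference between plasmids was 1.5 ± 0.18 (adjusted p = 0.0005). GPP2 was 1.17, 0.95 and 1.03 in D11 with the tRNA, against 1.44, 1.37 and 1.29 in H9, a difference between plasmids of -1.41 ± 0.18 (adjusted p = 0.00072). ZPS1 was 4.38, 0.92 and 4.06 in D11 with the tRNA, against 0.36, 0.43 and 0.04 in H9 with the tRNA, opposite to its order with the empty vector (difference between plasmids -6.06 ± 1.27, adjusted p = 0.0113). YGP1 kept its direction but at a smaller size, -0.75 with the tRNA (adjusted p = 0.023). THI7, a thiamine transporter on chromosome XII, differed by 1.06 with the empty vector and by 2.88 with the tRNA (adjusted p = 2.3e-05). With the empty vector its arrays overlapped and it missed 2-fold patch-free (0.98).

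**Figure D5:**
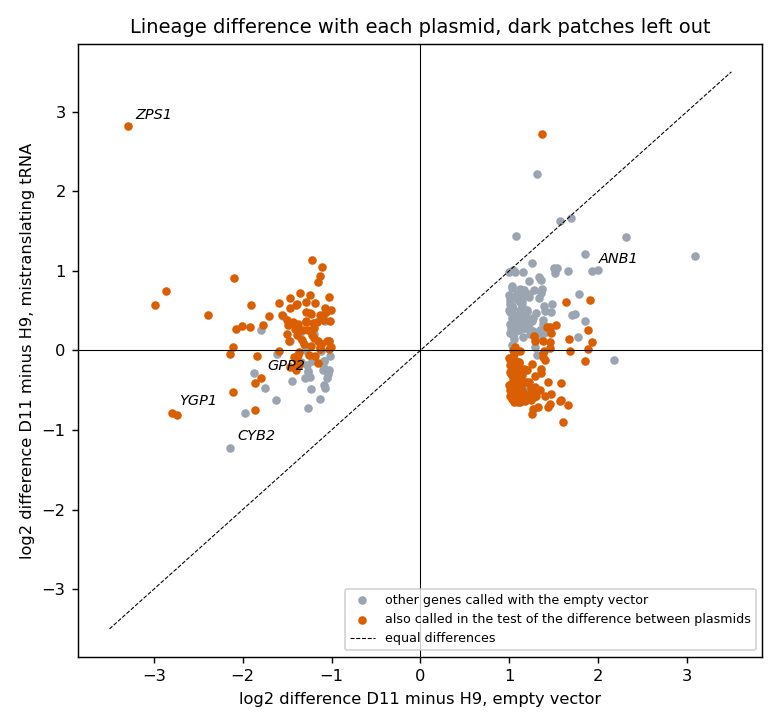
Patch-free log2 difference D11 minus H9 with the empty vector (across) and with the mistranslating tRNA (up) for the genes called with the empty vector; orange points were also called in the test of the difference between plasmids and the dashed line marks equal differences. CYB2 and ANB1 lie on the same side of 0 with both plasmids, and ZPS1 lies on opposite sides. The genes shown were picked by their empty vector difference, which is also part of that test.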

How the data were processed

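Copies made from total RNA with the Agilent T7 promoter primer were labelled with Cy3 and hybridised to 1-colour Agilent yeast arrays. The authors deposited spot intensity values read with Agilent Feature Extraction 10.7.3.1, which had subtracted background and removed a spatial trend. They also deposited log2 values normalized with BRB-Array tools, and these equalled log2 background-subtracted signals shifted by a constant on each array. Because the probes follow an older genome release, R64 gene tables served for names and gene order only (5590 of 5912 genes tested matched). Outlier and control spots were dropped. Processed signals were put on the log2 scale, each array was set to a median of 0, and values were averaged within probes and then within genes. Probes stayed in if some group had them well above background on all its arrays (5940 of 6256 probes).

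The 22 arrays entered a single limma fit (version 3.58.1, R 4.3.3) with a coefficient for each of 8 groups (14 residual and 2.23 prior degrees of freedom) and Benjamini-Hochberg adjustment. The number of arrays limits the precision. Arrays were grouped by title. Segments, taken from the rearrangements the study lists, and the 51 gene lists were chosen with earlier results of these data known. Named genes were the 15 called genes with the greatest difference in each direction outside the segments (arrays not overlapping, same sign on every slide), up to 5 per segment and direction, and for each list the called members and the 4 with the greatest differences. The dark patches were found in the data: a spot was left out where the median deviation over 13 rows and 7 columns lay below -0.5, and up to 20 further genes in each direction were named by the same rule with them left out. Outside these rules SHC1, YMC2, ATG41, AAC3, CUP1-1, CUP1-2, FPR4, HYP2 and HAP1, and the genes of the closing observations, were named after their values were seen. Alternatives were other scalings, normexp (on median signals), the deposited log2 values, array weights, the slide as a block, other filters and thresholds, the methods' t-test and leaving out each array. The alternatives that leave patches out were chosen after seeing the data.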

Additional observations from a re-analysis of the deposited data

Results flagged for a closer look

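The difference between D11 and H9 was not the same with the 2 plasmids for 341 genes. They were called by a limma test of the D11 minus H9 difference with the empty vector minus that with the mistranslating tRNA. The values that follow are that log2 difference between plasmids for named genes with an adjusted p below 0.05 and at least 2-fold. Of the genes called with the empty vector, 72 of the 134 higher and 63 of the 138 lower genes outside the segments were among the 341. The empty vector difference that picked these genes also enters the test, which raises both counts. All 46 genes named here kept the sign without the third empty vector arrays, where 33 were called and 201 of all genes were. The calls of YGL024W, FYV7, RBP95, COX15, DBP2, YGR160W, SUL1, RPF1, GLC3, PUF6, BMT5, XBP1 and YHK8 were lost. With dark patches left out 45 were called, and COX15 had -0.99.

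Ribosome assembly and nucleolar genes were more positive with the empty vector. The values were 2.56 for DBP2, 2.25 for FAF1, 2.20 for HCA4, 2.18 for PXR1, 2.05 for ENP2, 2.05 for UTP23, 2.02 for RMT2, 1.92 for NOP7, 1.92 for BMT5, 1.91 for FYV7, 1.88 for RPF1, 1.81 for RRT14, 1.75 for SPB1, 1.68 for BUD20, 1.65 for RRP17, 1.58 for PUF6, 1.52 for RRP15, 1.52 for YVH1, 1.49 for RBP95 and 1.31 for SDO1. Other genes with a positive value were YNL174W at 2.40, YGR160W at 2.07, YCR087C-A at 1.69, ATO3 at 1.58, SUL1 at 1.22, YHK8 at 1.18 and YGL024W at 1.08.

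Negative values were found for genes of carbohydrate storage and sugar use, with -3.55 for HXK1, -2.96 for GAC1, -2.79 for GPH1, -2.06 for GLC3, -2.01 for GSY2 and -1.41 for GPP2. Genes of respiration had -1.88 for SDH2, -1.84 for SDH6 and -1.24 for COX15. The others were ZPS1 at -6.06, RSB1 at -2.29, HBN1 at -2.29, RIM4 at -2.27, YGP1 at -1.96, YTP1 at -1.89, YMR196W at -1.72, PHM6 at -1.54, XBP1 at -1.41 and PRY1 at -1.06. The values of RSB1, PHM6 and SUL1 do not measure a size: with the empty vector RSB1 and PHM6 were well above background on 0 D11 arrays, and SUL1 on 1 D11 and 0 H9 arrays.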

How the results depend on the processing

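With the replicate number (slide) as a block, 385 genes were called in all and 271 outside the segments, against 384 and 272 without it. Same-numbered D11 and H9 arrays deviated from their group means together with correlations of 0.139, 0.111 and 0.088, so the numbers were not taken to pair the samples, although each array correlated best with its own number. Leaving out 1 array at a time gave 278 to 563 calls in all and 194 to 405 outside the segments. The lowest counts were those without D11 replicate 3 (278) and without H9 replicate 3 (297), and the highest that without D11 replicate 1 (563). With the tRNA the range was 56 to 91. Without the third arrays 197 genes were called, 124 of them outside the segments, and the test of the difference between plasmids called 201, of which 163 were called with all arrays (chosen after seeing the data). Leaving the dark patches out and subtracting the local trend gave 327.

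A fit to the 6 arrays alone called 2 genes in all and 2 outside the segments, and array weights left 194 and 126. The fit to the 6 arrays takes its spread from them only, whereas the main fit takes it from all groups. How far the smaller number of arrays and their wider spread each lowered the count was not tested. The methods' t-test at 0.01 with a 2-fold minimum called 93 and 59, and 0 after Benjamini-Hochberg adjustment. Dropping the 2-fold minimum gave 2006 and 1446, with 510 for the tRNA and 743 for the difference between plasmids. Normexp gave 28 for the tRNA and 198 for the difference between plasmids. Calls split into 180 higher and 186 lower when scaled on the 75th percentile, and 294 higher and 130 lower when centred on genes outside the segments, against 226 and 158. The mean over the outer part of chromosome V, -0.009, was -0.079 on the 75th percentile, 0.060 when centred on genes outside the segments, 0.169 with normexp, 0.060 in the deposited values, 0.050 with patches left out and 0.047 with the local trend subtracted as well.

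Of the log2 differences of genes named by rule and of list members, 3 changed sign with a call on either side, all with normexp: PHM6 to 0.16, SPS4 to 0.57 and PGU1 to 0.24, and the cause was not tested. Over all alternatives 4820 values kept direction and side of the threshold, 850 lost the call and 141 gained it. Medians of lists near 0, among them hexose transporters, proteasome, iron uptake and histones, changed sign under some alternatives, and 75 medians under an alternative moved by more than the spread between replicates. CUP1-2, named after its values were seen, changed from -0.05 to 1.23 with patches left out. Depth is not recorded on arrays, and genes not well above background in a lineage have only a bound.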

Other observations

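Beside ANB1 and AAC3, values of a few other genes known to depend on oxygen or heme follow, with no test over them. HEM13, a heme synthesis gene that is induced at low oxygen, was 1.43, 1.43 and 1.72 in D11, against 1.49, 1.98 and 1.49 in H9 (-0.12, adjusted p = 0.443). ROX1, the repressor of low-oxygen genes, was 0.18, 0.19 and 0.61 in D11, against 0.34, 0.69 and 0.00 in H9 (-0.02, adjusted p = 0.943). OLE1, the fatty acid desaturase, differed by 0.64 (adjusted p = 0.036) and TIR1, a wall mannoprotein, by 0.51 (adjusted p = 0.0032), both short of 2-fold. COX5B, the low-oxygen form of a cytochrome c oxidase subunit, differed by -0.50 (adjusted p = 0.0725) and its aerobic form COX5A by -0.72 (adjusted p = 0.002). These genes were chosen after their values were seen.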
